A study of Mus musculus with 4 samples.

Results

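The aldehyde dehydrogenase genes *Aldh1a2*, *Aldh1b1*, *Aldh2*, *Aldh3a1*, *Aldh3a2*, *Aldh3b1*, *Aldh4a1*, *Aldh7a1*, *Aldh9a1* and *Aldh18a1*, were followed in the transcriptome of mouse embryonic stem cells (ESCs) with and without the circadian transcription factor BMAL1. They were selected by gene symbol from the 19645 features in the files, with the *Bmal1* KO against WT values of these same libraries known, so those values describe the members and are not a test of them. The 10 symbols matched 10 features, 1 for each gene. RNA was sequenced after ribosomal depletion from 2 libraries of WT ESCs and 2 libraries of *Bmal1* KO ESCs. WT ESCs carry the intact gene. The KO cells are 1 selected clone made with CRISPR-Cas9, in which a frameshift deletion removes BMAL1 protein, and both groups were grown on gelatin with serum and leukaemia inhibitory factor (LIF). The labels number the libraries of each genotype as replicates and name no further clone or culture, so p-values measure only the spread between these libraries, and genotype cannot be told apart from clone.

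Most aldehyde dehydrogenases use NAD+ or NADP+ to oxidise aldehydes, which are reactive and toxic, to carboxylic acids. Some members clear aldehydes from lipid peroxidation or ethanol, some make retinoic acid, and others carry out steps of proline, lysine, carnitine or choline metabolism, so the family spans the cytosol, membranes and the mitochondrial matrix. BMAL1 works as a heterodimer with CLOCK or NPAS2 that binds E-boxes, among them the 6 letters CACGTG, in the regulatory regions of clock-controlled genes.

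Because BMAL1 binds this motif, the RefSeq promoter of each member (GRCm38.p6, 250 bases before to 50 after the start) was searched for CACGTG, which reads the same on both strands. Promoters were found for 7 of the 10 members, the exceptions being *Aldh2*, *Aldh3a1* and *Aldh7a1*. The motif was present in 2 of the 7, *Aldh3a2* and *Aldh18a1*, and in 7.15% of all 32851 promoters (8.09% of 27025 gene symbols). The bases before the start of both genes are printed below from 5′ to 3′ with the motif in capitals, together with those of *Aldh1a2*, which has no match and is the member with a promoter whose FPKM ratio was largest. For *Aldh3a2* only the 52 bases that no annotated exon covers are given.
Aldh3a2, chr11:61267187-61267238, minus strand: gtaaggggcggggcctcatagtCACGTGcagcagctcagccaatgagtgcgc
Aldh18a1, chr19:40588464-40588563, minus strand: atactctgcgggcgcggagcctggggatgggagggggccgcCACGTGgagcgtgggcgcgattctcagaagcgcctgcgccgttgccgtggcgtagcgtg
Aldh1a2, chr9:71215689-71215788, plus strand: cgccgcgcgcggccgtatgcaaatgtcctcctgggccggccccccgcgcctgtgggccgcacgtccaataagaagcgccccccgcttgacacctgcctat
The motif ends 24 bases before the RefSeq start used for *Aldh3a2* and 53 bases before that used for *Aldh18a1*. The annotated *Aldh3a2* gene begins further upstream, at 61267464 on the minus strand, so by that annotation its match lies within the gene. The 50 bases after this RefSeq start were also not found in an annotated transcript of *Aldh3a2*. A match in these letters is a description of the sequence and does not show binding.

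The values are FPKM, in which the fragments of a gene are divided by transcript length in kilobases and by the mapped fragments of the library, so that levels can be compared between genes. FPKM keep no read numbers. Sequencing depth is thus unknown, and error can be estimated only from the spread between libraries of a genotype. KO was compared with WT in limma on log2(FPKM + 0.1) over the 12990 features whose mean reached 0.5 FPKM. This fit shares the variance across features. A standard error or p-value therefore does not rest on the spread of that feature alone. Features past both an adjusted p of 0.05 and a 2-fold change are referred to as called. Fold changes on this scale understate the change of genes with low FPKM. The FPKM of *Arntl*, the gene for BMAL1, was 6.05 and 6.29 in WT and 5.95 and 5.92 in KO, a log2 fold change of -0.06 (standard error 0.10), so the transcript level gives no check of the deletion. Of 8 ESC markers, *Pou5f1* lay between 1389 and 1620 FPKM and *Nanog* between 179 and 207, while *Dppa3* was at 1.99 to 4.18; at the adjusted p *Klf4* was lower and *Tfcp2l1* higher in KO. Among the other markers, 7 of 8 detected fibroblast markers had a mean under 0.5. The summed FPKM of the 8 fibroblast markers was 2.21 to 2.50 in WT and 2.96 to 3.70 in KO, that of 8 endoderm markers 1.17 to 1.28 and 1.84 to 1.96, and that of 7 neural markers 128 to 135 and 87.1 to 95.6. The neural sum is nearly all *Tubb3*, which was lower in KO, whereas *Sox1* (1.32 and 1.38 in WT, 6.91 and 7.61 in KO) and *Pax6* (0.466 and 0.859 in WT, 2.28 and 2.36 in KO) were called higher. Features without a symbol took 26.8% and 37.3% of the summed FPKM in WT and 19.0% and 18.1% in KO. The Y-linked *Eif2s3y* was at 1.40 and 2.04 in WT and at 44.6 and 53.1 in KO. Also Y-linked, *Ddx3y* (0.235 and 0.403 in WT, 16.4 and 20.6 in KO) and *Uty* (0.110 and 0.0965 in WT, 3.58 and 5.16 in KO) were higher. *Kdm5d* did not exceed 0.0168 in any library. The WT and KO cells thus differed in Y-linked RNA as well as in *Bmal1* genotype. The part of these differences in the values below was not tested. In bulk RNA, fewer cells that express a gene and less RNA per cell cannot be told apart.

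The 10 members spanned a 616-fold range in WT ESCs. *Aldh2* stood at the top, with *Aldh9a1*, *Aldh7a1* and *Aldh18a1* next, and *Aldh1a2* at the bottom. In the order of WT means (*Aldh2*, *Aldh9a1*, *Aldh7a1*, *Aldh18a1*, *Aldh4a1*, *Aldh3a2*, *Aldh1b1*, *Aldh3a1*, *Aldh3b1*, *Aldh1a2*), the WT values of each gene lay above those of the next. The order was the same in KO but for *Aldh3a1* and *Aldh1b1*, whose KO values overlapped. The narrowest step was from *Aldh9a1* to *Aldh7a1*, with a ratio of 1.09 between WT means. Among the 17710 features with a symbol, the WT mean of *Aldh2* exceeded 96.2%, that of *Aldh4a1* 76.6% and that of *Aldh1a2* 28.2%.

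**Figure D1:**
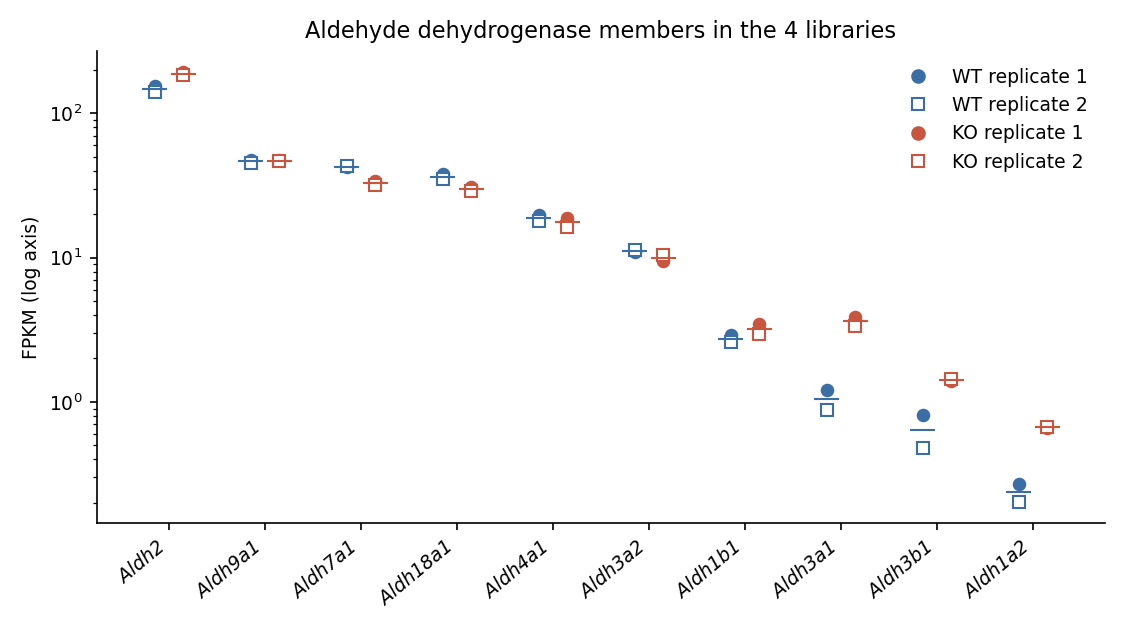
FPKM of the 10 members in each library, on a log axis; filled circles are replicate 1, open squares replicate 2, and bars the mean of each genotype. *Aldh2* lies between 140 and 192, and the 3 genes with the lowest WT means show the widest gaps between WT (blue) and KO (red).

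Of the 9 members tested, 1 was called higher in KO, *Aldh3a1*, against 2.72% of all tested features, and 0 were called lower in limma, against 1.42%. At an unadjusted p under 0.05, 3 of the 9 were higher and 2 lower, where 14.1% and 15.5% of all tested features were. At the adjusted p alone, 2 were higher (*Aldh3a1* and *Aldh2*; 6.85% of all features) and 1 lower (*Aldh7a1*; 5.60% of all features). Without a variance trend, *Aldh3a1* alone remained under that threshold, and without the filter on low values *Aldh2* was not under it. When a library was left out, log2 fold changes ran from 0.29 to 0.43 for *Aldh2* and from -0.42 to -0.34 for *Aldh7a1*. The KO libraries were above both WT libraries in 4 of the 9 tested members and below them in 3, where 27.0% and 31.7% of all tested features did the same. These counts are given beside the background, and nothing is read from them, since the members were chosen with the values known. The median log2 fold change was 0.02 over the 9 tested members and -0.02 over all tested features. *Aldh1a2*, with a mean of 0.452, fell below the filter and was not tested.

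**Figure D2:**
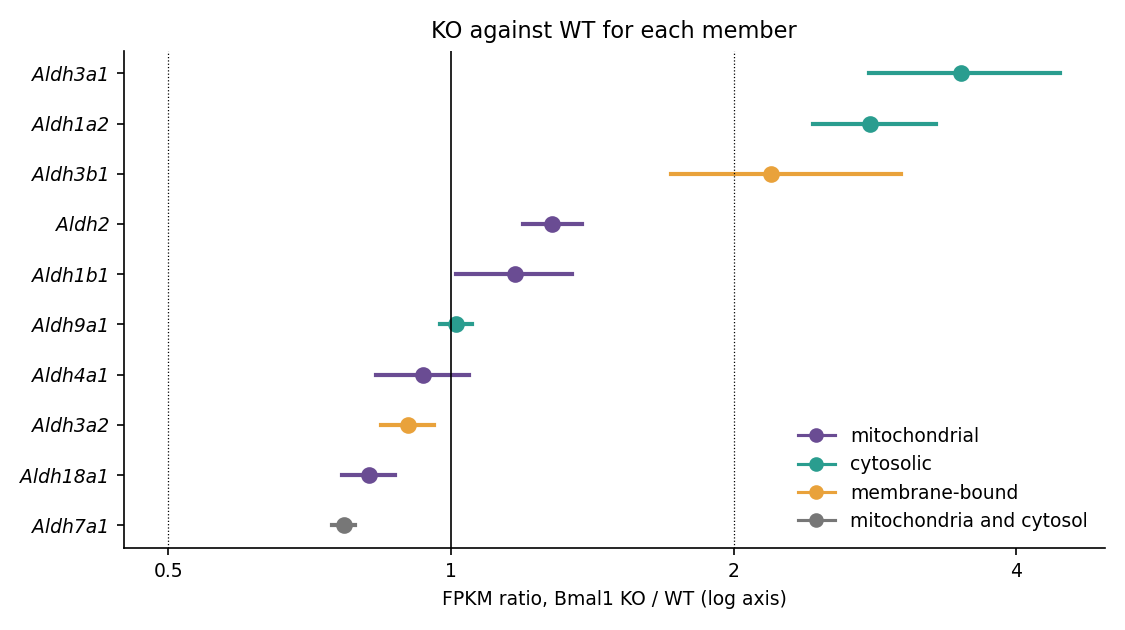
Ratio of mean FPKM in KO to mean FPKM in WT for each member (point) on a log axis, with a line from the lowest to the highest of the 4 ratios between single libraries and colours for the compartment of the enzyme. *Aldh3a1* reaches 3.49 with a range of 2.79 to 4.45, while 7 members stay between the dotted lines at 0.5 and 2 over their whole range.

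The ALDH3 group, enzymes of fatty and aromatic aldehydes, held the member with the widest relative difference, *Aldh3a1*, and also *Aldh3a2*, with one of the narrower ones. *Aldh3a1*, whose cytosolic enzyme is abundant in the cornea and oxidises aldehydes from lipid peroxidation, lies on chr11:61207537-61218421 on the plus strand of GRCm38. Its FPKM was 1.21 and 0.877 in WT and 3.91 and 3.37 in KO, and the lowest KO value was 2.79 times the highest WT value. The log2 fold change was 1.72 (standard error 0.20). The genotypes did not overlap, but the gene stayed at a low level in both, below *Aldh3a2* in every library. With a pseudocount of 1 the log2 fold change was 1.19.

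*Aldh3a2* encodes the fatty aldehyde dehydrogenase of the endoplasmic reticulum, which is deficient in Sjögren-Larsson syndrome. The gene lies next to *Aldh3a1*, on the opposite strand at chr11:61223417-61267464. Its FPKM was 10.9 and 11.3 in WT and 9.48 and 10.4 in KO. The KO libraries were thus slightly below the WT libraries, with a log2 fold change of -0.15 (standard error 0.10). The adjacent genes therefore differed in opposite directions. Among the 6 tested features that flank *Aldh3a1* (3 on each side), log2 fold changes ran from -1.21 to 1.17 and 1 was called, *Kcnj12*, a potassium channel gene that rose from 0.818 and 0.821 to 1.95 and 1.98 (adjusted p = 0.016, limma with Benjamini-Hochberg adjustment). *Kcnj12* was named after its value was seen.

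*Aldh3b1* encodes a membrane-anchored enzyme that acts on medium- and long-chain aldehydes, and lies on the minus strand at chr19:3913491-3929808. Its FPKM was 0.812 and 0.476 in WT and 1.39 and 1.43 in KO. The KO values were close together and above both WT values, which themselves differed by more, and the log2 fold change was 1.06 (standard error 0.29). *Aldh3b1* was not called, and its log2 fold change ran from 0.73 to 1.39 when a library was left out. Its transcript shares 9.55% of its 50-base words with transcripts of other genes, chiefly *Aldh3b3* and *Aldh3b2*, so some fragments could be divided between them. *Aldh3b2*, its neighbour on the other strand, went the other way, with 0.450 and 0.476 in WT and 0.0952 and 0.164 in KO, below the filter for testing.

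*Aldh1a2* (RALDH2) makes most of the retinoic acid of the early embryo and lies on chr9:71215789-71296243 on the plus strand. Its FPKM was 0.272 and 0.204 in WT and 0.660 and 0.671 in KO. The genotypes did not overlap, and the mean ratio was 2.80, but each value is close to the floor of the measurement. The log2 fold change was 1.19 with the pseudocount of 0.1, 0.43 with a pseudocount of 1 and 1.46 with 0.01, so its size rests on that choice.

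*Aldh2*, the mitochondrial enzyme that oxidises acetaldehyde from ethanol and also 4-hydroxynonenal, had the highest FPKM of the family. It lies on the minus strand at chr5:121566027-121593824. Its FPKM was 154 and 140 in WT and 192 and 183 in KO. Both KO libraries were above both WT libraries, with a log2 fold change of 0.36 (standard error 0.08), and the mean ratio of 1.28 was far from 2-fold. In absolute terms this was nonetheless the greatest difference among the members, 41.0 FPKM between the means. *Aldh2* alone made up 47.2% to 48.4% of the summed FPKM of the members in WT and 56.2% to 56.3% in KO.

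*Aldh1b1*, a mitochondrial relative of *Aldh2* that also accepts acetaldehyde, has its whole gene in 5.58 kb at chr4:45799022-45804604 on the plus strand. It was far less abundant, with 2.90 and 2.60 FPKM in WT and 3.49 and 2.93 in KO. The lowest KO value exceeded the highest WT value by a factor of only 1.01, and the log2 fold change was 0.21 (standard error 0.15).

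The members of amino acid metabolism were lower in KO or overlapped between the genotypes. *Aldh18a1* encodes the mitochondrial enzyme that makes pyrroline-5-carboxylate (P5C) from glutamate, the entry to proline and ornithine synthesis, and lies at chr19:40550257-40588463. Its FPKM was 37.6 and 35.2 in WT and 30.7 and 28.8 in KO. Both KO values were below both WT values, with a log2 fold change of -0.29 (standard error 0.08), and it passed neither threshold. *Aldh4a1*, at chr4:139622866-139649690, encodes the mitochondrial enzyme that runs proline breakdown in the other direction, from P5C to glutamate. It had 19.6 and 18.0 FPKM in WT and 18.8 and 16.3 in KO, and the genotypes overlapped (log2 fold change -0.10, standard error 0.11). The annotation places a second protein-coding gene, *Gm21969*, over the whole of *Aldh4a1* on the same strand, and 45.0% of the 50-base words of the *Aldh4a1* transcript occur in other genes, so this value may be divided between both.

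*Aldh7a1* encodes antiquitin, which acts in lysine breakdown and betaine synthesis in both mitochondria and cytosol, and whose loss causes pyridoxine-dependent epilepsy. Its FPKM was 42.6 and 42.8 in WT and 33.7 and 32.0 in KO. The 2 WT libraries were nearly equal, the KO libraries lay below them, and the log2 fold change was -0.38 (standard error 0.07), the most negative among the members. The annotated gene covers chr18:56509687-56572951 and overlaps *Phax*, on the opposite strand, over 10509 bases. The files give *Aldh7a1* and *Phax* the same span, 56525736 to 56587712, and *Phax* was also lower, with 38.5 and 42.0 in WT and 29.6 and 33.2 in KO. Whether the counting used strand is not given in the sources used here, so reads from both genes cannot be told apart with certainty.

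*Aldh9a1*, the cytosolic enzyme for 4-trimethylaminobutyraldehyde in carnitine synthesis, lies at chr1:167349991-167368532. Its FPKM was 47.8 and 44.9 in WT and 47.3 and 46.5 in KO. Both KO values lay between the WT values, and the log2 fold change of 0.02 had a standard error of 0.08, the least difference of the 10 members.

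Level and relative difference were ordered differently. The 4 members with a WT mean under 10 FPKM all had both KO libraries above both WT libraries, with log2 fold changes of 0.21 to 1.72. Of the 6 members above 10 FPKM, 1 was above (*Aldh2*), 3 were below (*Aldh7a1*, *Aldh18a1* and *Aldh3a2*) and 2 overlapped, with log2 fold changes of -0.38 to 0.36. The spread between replicates was also wider in the former, with a median SD of 0.19 on the log2 scale against 0.07 in the latter. Over all tested features, 27.0% were above and 31.7% below. Among the 4, *Aldh1a2* was not tested, and *Aldh1b1* separated by a factor of only 1.01. Nothing is read from these counts, since the members were chosen with the values known.

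Cytosolic and mitochondrial members were then compared. The mitochondrial members (*Aldh2*, *Aldh1b1*, *Aldh4a1* and *Aldh18a1*) summed to 214 and 195 FPKM in WT and 245 and 231 in KO. The cytosolic members (*Aldh1a2*, *Aldh3a1* and *Aldh9a1*) summed to 49.3 and 46.0 in WT and 51.9 and 50.5 in KO. Both sums were higher in both KO libraries, by 33.6 and 3.57 FPKM between the means. The mitochondrial members held 66.0% to 67.3% of the summed FPKM of the 10 members in WT and 71.0% to 71.8% in KO, while the cytosolic members held 15.2% to 15.5% in all libraries.

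The higher mitochondrial sum rested on *Aldh2*. Without it, the other 3 mitochondrial members summed to 60.2 and 55.8 FPKM in WT and 53.0 and 48.1 in KO, so that the direction turned. The cytosolic sum likewise was made mostly of *Aldh9a1*, which overlapped between the genotypes, and of its difference *Aldh3a1* gave 2.59 FPKM, *Aldh9a1* 0.552 and *Aldh1a2* 0.427. By fold, the median log2 fold change was 0.06 over the 4 mitochondrial members (range -0.29 to 0.36) and 1.19 over the 3 cytosolic members (0.02 to 1.72). With *Aldh7a1* counted as mitochondrial and the membrane-bound *Aldh3a2* and *Aldh3b1* as cytosolic, the medians were -0.10 over 5 and 1.06 over 5. The cytosolic median of 1.19 is the value of *Aldh1a2* alone, and that of 1.06 the value of *Aldh3b1* alone. Their WT means were only 0.238 and 0.644 FPKM, and *Aldh1a2* was not tested and *Aldh3b1* not called. Neither contrast between compartments is tested, since 2 libraries against 2 cannot give an exact permutation p below 0.333 and the members are not replicates of a compartment.

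**Figure D3:**
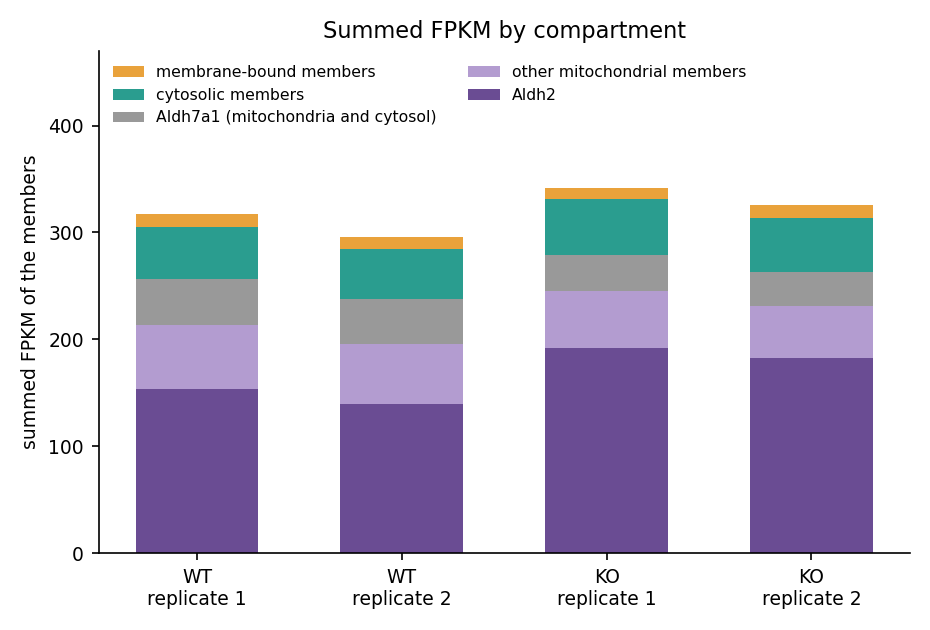
Summed FPKM of the members in each library, stacked by the compartment of the enzyme, with *Aldh2* drawn apart from the other mitochondrial members. The total is 317 and 296 in WT and 342 and 325 in KO, and the *Aldh2* block is the one that is taller in both KO libraries by more than the whole membrane-bound block.

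The family has 11 further genes on the list used, of which 10 were in the files. The 5 that were abundant enough to test were *Aldh16a1*, *Aldh6a1*, *Aldh5a1*, *Aldh1l2* and *Aldh1l1*. None was called in limma, and 2 of the 5 had an unadjusted p under 0.05, both higher in KO, against 14.1% of all features higher. *Aldh1l1*, the cytosolic 10-formyltetrahydrofolate dehydrogenase of folate metabolism, had 0.617 and 0.795 FPKM in WT and 1.49 and 1.25 in KO. Its log2 fold change was 0.87 (standard error 0.24, adjusted p = 0.070 in limma), and 0.71 to 1.03 when a library was left out. *Aldh5a1*, the mitochondrial succinic semialdehyde dehydrogenase of GABA breakdown, had 2.28 and 2.66 in WT and 3.98 and 3.48 in KO (log2 fold change 0.58, standard error 0.15). In both genes, and in *Aldh1l2*, the KO values were above the WT values without overlap. Of the 5, 3 were above and 0 below, where 27.0% and 31.7% of all tested features did the same. In either direction, 60% of the 5 separated, against 58.8% of all tested features, and nothing is read from these counts.

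*Aldh1l2*, the mitochondrial counterpart of *Aldh1l1*, had 1.15 and 0.971 FPKM in WT and 1.32 and 1.23 in KO. *Aldh6a1*, the methylmalonate semialdehyde dehydrogenase of valine breakdown, had 7.51 and 7.36 in WT and 6.92 and 8.06 in KO, and *Aldh16a1* had 20.2 and 16.3 in WT and 23.4 and 18.7 in KO. In these last 2 the genotypes overlapped. *Aldh1a3*, *Aldh1a1*, *Aldh1a7* and *Aldh8a1* were low throughout. *Aldh1a3* was at 0.283 and 0.217 in WT and 0.340 and 0.298 in KO, and *Aldh1a1*, *Aldh1a7* and *Aldh8a1* did not exceed 0.138 in any library, with at least 1 library listed at 0 for each.

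**Figure D4:**
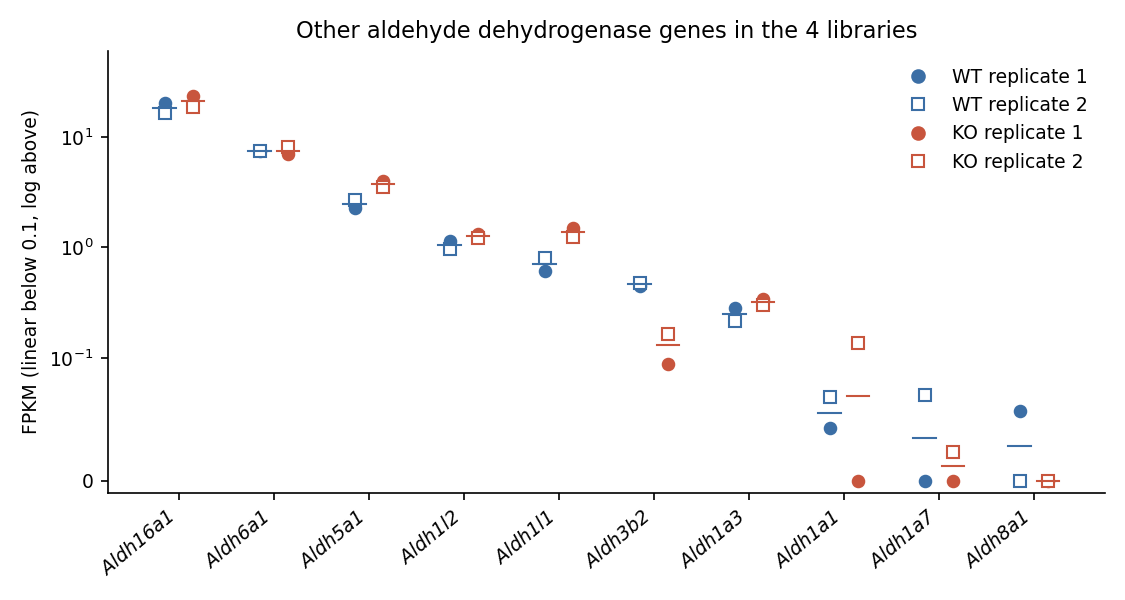
FPKM of the other 10 aldehyde dehydrogenase genes in each library, on an axis that is linear below 0.1 and logarithmic above; symbols as for the members. *Aldh1l1*, *Aldh5a1*, *Aldh1l2* and *Aldh1a3* are higher and *Aldh3b2* lower in both KO libraries, while *Aldh1a1*, *Aldh1a7* and *Aldh8a1* lie near 0.

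The enzymes and receptors of the retinoid pathway, which supply the substrate of *Aldh1a2* and respond to its product, were then examined. Of 32 listed genes 31 were in the files and 20 were tested. None was called in limma (4 of the 20 had an unadjusted p under 0.05 upwards and 2 downwards, against 14.1% and 15.5% of all features), and 2 rose at the adjusted p alone, where 12.5% of all features passed in either direction. The median log2 fold change was -0.03. *Crabp1*, which binds retinoic acid in the cytosol, rose from 6.41 and 5.13 FPKM to 8.74 and 9.94 (log2 fold change 0.69, standard error 0.14, adjusted p = 0.034 in limma; 0.057 without KO replicate 2, 0.076 without the filter on low values and 0.071 without a variance trend). The other was *Fabp5*, a carrier of fatty acids and retinoic acid, named after its value was seen, from 18.8 and 19.5 to 25.2 and 24.7 (adjusted p = 0.033 in limma). *Stra8*, a retinoic acid target of germ cells, had 2.11 and 1.62 in WT and 0.598 and 1.19 in KO (log2 fold change -1.04, standard error 0.34, adjusted p = 0.11 in limma). Its log2 fold change ran from -1.48 to -0.59 when a library was left out. *Rbp4*, which carries retinol in blood, had 0.545 and 0.363 in WT and 0.849 and 0.757 in KO (log2 fold change 0.72, standard error 0.30, adjusted p = 0.17 in limma). The enzymes of retinoic acid breakdown, *Cyp26a1*, *Cyp26b1* and *Cyp26c1*, did not exceed 0.154 in any library.

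The list of proline, lysine and choline metabolism held 26 genes, of which 23 were in the files and 16 were tested. In it 1 gene was called higher and 0 lower in limma, 6.25% against 4.14% of all features in either direction, and 3 of the 16 had an unadjusted p under 0.05 upwards and 4 downwards, against 14.1% and 15.5%. *Crym*, a ketimine reductase of lysine breakdown that also binds thyroid hormone, rose from 0.362 and 0.372 FPKM to 1.70 and 1.35 (log2 fold change 1.79, standard error 0.25, adjusted p = 0.012 in limma). The WT mean of *Crym*, 0.367, was under the minimum of 0.5 FPKM, and the gene passed that filter through its KO mean of 1.53. It was also called without the filter (adjusted p = 0.031 in limma). It was not called with a pseudocount of 1, and at a mean FPKM minimum of 1 it was not tested. *Pycrl*, which reduces P5C to proline, fell from 47.2 and 43.9 to 30.5 and 27.1 (log2 fold change -0.66, standard error 0.09, adjusted p = 0.012 in limma), a change of less than 2-fold. *Prodh*, the first enzyme of proline breakdown, had 18.5 and 15.3 in WT and 13.8 and 11.9 in KO. Its log2 fold change was -0.39 (standard error 0.13, adjusted p = 0.11 in limma), and -0.53 to -0.26 when a library was left out. *Aldh18a1*, upstream of *Pycrl*, thus lay in the same direction as *Pycrl* at a smaller size, and the difference between them was not tested.

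Other enzymes of aldehyde and carbonyl metabolism were examined last. Of 33 listed genes 31 were in the files and 22 were tested. In it 1 gene was called higher and 0 lower in limma, 4.55% against 4.14% of all features in either direction, and 5 of the 22 had an unadjusted p under 0.05 upwards and 2 downwards, against 14.1% and 15.5%. At the adjusted p alone, 5 rose and 2 fell, 31.8% of the tested list against 12.5% of all features, and no test of the list was made. *Ptgr1*, an NADPH-dependent reductase of 4-hydroxynonenal and leukotriene B4, was the called gene and rose from 14.7 and 16.3 FPKM to 42.5 and 46.1 (log2 fold change 1.51, standard error 0.09, adjusted p = 0.0017 in limma). *Cbr3*, a carbonyl reductase, rose from 54.4 and 57.5 to 102 and 97.0 (log2 fold change 0.83, standard error 0.07, adjusted p = 0.0047 in limma). *Aox1*, aldehyde oxidase, had 0.236 and 0.378 in WT and 0.403 and 0.997 in KO (log2 fold change 0.89, standard error 0.47, adjusted p = 0.27 in limma). The other 3 that rose were *Akr1b10*, *Akr7a5* and *Dcxr*, with log2 fold changes of 0.74, 0.54 and 0.52, and the 2 that fell were *Akr1b3* and *Ptgr2*, at -0.43 and -0.38. These 5 were named after their values were seen.

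**Figure D5:**
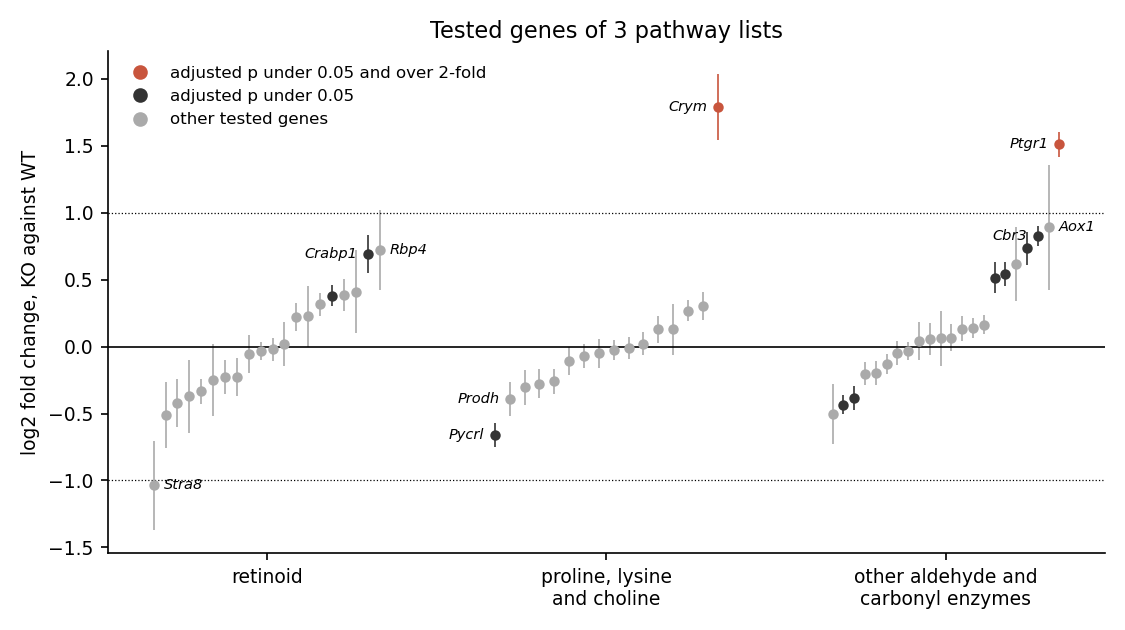
Log2 fold change of KO against WT, with its standard error, for every tested gene of the retinoid list (20), the proline, lysine and choline list (16) and the list of other aldehyde and carbonyl enzymes (22), ordered by value within each list. *Crym* and *Ptgr1* (red) are the called genes, at 1.79 and 1.51.

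The 3 tested features nearest in pattern to *Aldh3a1*, by Euclidean distance of log2(FPKM + 0.1) centred on each feature over the 4 libraries, were *Lims2* (distance 0.06), *Psd* (0.12) and *Hspb2* (0.15). *Lims2* had 0.832 and 0.603 FPKM in WT and 2.88 and 2.35 in KO, and *Hspb2* had 2.59 and 2.22 in WT and 8.66 and 7.45 in KO. With 4 libraries of 2 genotypes, this measure mostly orders features by the size of their fold change.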

How the data were processed

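The authors extracted total RNA with Trizol, depleted ribosomal RNA, mapped reads to GRCm38 (TopHat2 2.1.1, Bowtie2 2.3.0) and obtained FPKM for each feature from Cufflinks 2.2.1. These deposited FPKM were used as given; depth is unknown. Groups and replicates followed the sample labels. FPKM were compared as log2(FPKM + 0.1) with limma 3.58.1 (R 4.3.3), with a variance trend and Benjamini-Hochberg adjustment over 12990 features; each adjusted p comes from this test. Starts were raised by 1 base. Genes were placed with GENCODE M21, and other steps used Python 3.11.15. On simulated data of 2 against 2 libraries, 98.5% of 194 genes changed 4-fold were called, with 14 calls among the other genes of 12830. The largest ratio among the members was 3.49, so this recovery does not apply to differences of their size. The simulated noise was also pulled towards a common value, below the spread of the most variable features.

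The members and lists were chosen with earlier results of these data known. Named genes are all members, the other family genes in the files, each called gene and the 3 with the largest absolute fold change in each pathway list, and 3 features most like the member with the largest fold change. The alternatives were 13 settings, and 1 more, without features that lack a symbol, was added after seeing the data.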

Additional observations from a re-analysis of the deposited data

How the results depend on the processing

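*Aldh3a1* was called under all 14 alternatives, and its log2 fold change ran from 1.19 to 1.93. The number of called members was 2 with the replicate block and 2 without features that lack a symbol (*Aldh3b1* joined in both). It was 1 to 3 when a library was left out, the 3 without WT replicate 1 being *Aldh3a1*, *Aldh3b1* and *Aldh1a2*. That fit leaves 1 WT library, so nothing is read from the calls it added. *Aldh1a2* passed the filter there only through its KO values of 0.660 and 0.671, against 0.204 in that WT library. With all 4 libraries *Aldh1a2* was below the filter, and without the filter it was not called. Members under the adjusted p threshold numbered 5 with the replicate block, 1 without a variance trend and 1 to 4 when a library was left out. The replicate numbers are the only link between WT and KO libraries; the deviations of replicates 1 and 2 correlated across features at Pearson's r of 0.07 and Spearman's rho of 0.39, over 2 pairs of libraries, and the replicate block moved the number of features under the threshold from 1618 to 4052. Features called higher and lower numbered 353 and 185, against 146 and 85 with a pseudocount of 1, and 951 features were under the threshold without a filter. Those called lower ran from 257 to 323 when a library was left out. Leaving out a library gave 0 to 1 called genes in the other family genes and 0 to 1 in the retinoid list. The amino acid list had 0 called genes with a pseudocount of 1 and 0 with the minimum mean raised to 1 FPKM, where *Crym* was not tested. The median of cytosolic members, which is the value of *Aldh1a2*, was 0.43 and 1.46 with pseudocounts of 1 and 0.01. That of mitochondrial members was -0.10 with the broad classes and ran from -0.055 to 0.17 when a library was left out. *Aldh6a1* turned to -0.013 with quantile normalization, and ran from -0.10 to 0.12 when a library was left out. Quantile normalization moved *Aldh2* to 0.44. The cause was not tested for any of these. FPKM without depth limit most the members under 1 FPKM.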
